A study of Mus musculus with 36 samples.

Results

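The major urinary proteins (Mup) were described here from 9 rows of a table of liver transcript abundances, Mup1, Mup2, Mup3, Mup4, Mup5, Mup12, Mup19, Mup20 and Mup21, out of 21889 rows in all. The rows were chosen by gene symbol and by being present in the table, and the family was picked with its rise after weaning already known from these data, so the levels below are a description. Another 10 rows of the table carry a Mup symbol and are used only for comparison. RNA was sequenced from whole livers of 36 untreated C57BL/6 mice, 3 mice at each of 12 ages: a fetal age 2 days before birth (Day -2), the early Days 0, 1, 3 and 5, Days 10, 15 and 20 of suckling, and Days 25, 30, 45 and 60 after weaning. The study's methods state that the mice were of the C57BL/6J substrain, that all livers were male, that Day 0 preceded suckling, that weaning took place at 21 days, and that the 3 mice of an age came at random from multiple litters. The values are FPKM, fragment counts scaled to transcript length and to the mapped reads of the library, so that levels of different genes are compared per length.

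Major urinary proteins are small lipocalins, barrel-shaped carriers of hydrophobic molecules. In mice they are made mainly by hepatocytes, secreted into blood and filtered into urine, where they bind and slowly release volatile pheromones and themselves act as scent signals. Liver Mup expression is known to be higher in adult males than in females and to depend on pulsatile growth hormone, with further effects of thyroid hormone and glucocorticoid.

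The 9 genes lie in one cluster on chromosome 4 (build NCBIM37, chr4:59969676-61811897) and all 9 are annotated on the minus strand. Mup1, Mup2, Mup12 and Mup19 are near copies: their coding sequences were 99.3 to 99.6% identical to each other. Mup20, which encodes darcin, a protein pheromone in male urine, was 90.7 to 90.8% identical to these 4, and Mup5 was 90.2 to 90.4% identical. Mup4, a form known from the glands of the nose and eye, was 88.8 to 89.0% identical to the same 4. Mup3 and Mup21 formed a pair that shared 94.8% of coding bases and 83.0 to 84.8% with the near copies. To show how little separates the near copies, 60 coding bases from exon 3 of each gene are given 5′ to 3′, with bases that differ from Mup19 in capitals and the position on NCBIM37 before each.
Mup19, chr4:61441797-61441856: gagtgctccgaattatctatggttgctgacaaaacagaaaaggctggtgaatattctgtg
Mup1, chr4:60513315-60513374: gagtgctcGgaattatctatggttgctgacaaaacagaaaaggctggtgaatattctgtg
Mup2, chr4:60151263-60151322: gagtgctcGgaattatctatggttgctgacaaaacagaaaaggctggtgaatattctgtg
Mup12, chr4:60734681-60734740: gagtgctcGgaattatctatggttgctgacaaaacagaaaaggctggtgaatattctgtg
Mup5, chr4:61494745-61494804: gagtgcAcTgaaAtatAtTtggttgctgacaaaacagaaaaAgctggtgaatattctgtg
Mup4, chr4:59972072-59972131: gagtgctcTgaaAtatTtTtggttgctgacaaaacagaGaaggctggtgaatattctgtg
Mup20, chr4:61713674-61713733: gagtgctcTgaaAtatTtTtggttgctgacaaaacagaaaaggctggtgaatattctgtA
Mup3, chr4:61746997-61747056: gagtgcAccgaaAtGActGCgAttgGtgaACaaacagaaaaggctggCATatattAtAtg
Mup21, chr4:61810392-61810451: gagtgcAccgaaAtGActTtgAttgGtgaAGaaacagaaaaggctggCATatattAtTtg
In this stretch Mup1, Mup2 and Mup12 each differed from Mup19 at 1 base and were identical to each other, whereas Mup5 differed at 6 bases, Mup4 and Mup20 at 5, Mup21 at 14 and Mup3 at 15.

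The same split appeared over whole transcripts. Of all 100-base windows, the length of one read, 87.2% of the windows of Mup1, 97.3% of Mup2, 77.5% of Mup12 and 100% of Mup19 were found unchanged in a transcript of another gene. The share was 3.10% for Mup3, 4.50% for Mup21, 1.33% for Mup5 and 0% for both Mup4 and Mup20. With up to 2 mismatches allowed in a window, it was 94.2 to 100% for the near copies, 31.3% for Mup21, 22.9% for Mup3, 16.7% for Mup5, 11.3% for Mup4 and 1.57% for Mup20. Only annotated protein-coding transcripts were searched, and with mismatches only those of Mup genes. Matches elsewhere in the genome were not counted, so these shares are lower limits. Single values of Mup1, Mup2, Mup12 and Mup19 are therefore uncertain, since most reads could have been placed on more than one copy, and the annotated Mup2 gene also overlaps Mup7. The sum over the 9 members is open to the same uncertainty, because Mup2 and Mup19 were closest to Mup9, a Mup row outside the 9, and the sum over all 19 Mup rows is therefore given beside it at the later ages. The rows of Mup3, Mup5, Mup20 and Mup21 share fewer windows, and reads with mismatches could still have been placed on another copy.

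Promoters of 5 members (Mup2, Mup3, Mup4, Mup19 and Mup21) were in the RefSeq table for build GRCm38.p6. Identities to the Mup19 promoter were taken over the overlapping part of the 300-base promoters, with gaps counted and unmatched ends left out. They were 96.7% for Mup2 (301 positions), 82.6% for Mup4 (298), 77.1% for Mup3 (280) and 75.1% for Mup21 (277). The TATA-box sequence TATATAA, searched on both strands, was present in all 5 and in 12 of the 13 Mup promoters of the table, against 3.24% of 32851 promoters of the same length. TTCNNNGAA, the sequence that STAT5 dimers recognize, was present in 0 of the 13 Mup windows and in 8.30% of all promoters. The 100 bases that end with TATATAA (capitals) are shown for a near copy, for Mup4, which was almost silent in liver, and for Mup3, which was abundant, with positions on GRCm38.p6, minus strand.
Mup19, chr4:61782249-61782348: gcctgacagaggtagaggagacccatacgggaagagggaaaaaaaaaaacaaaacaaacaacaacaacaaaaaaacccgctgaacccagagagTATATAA
Mup4, chr4:59960690-59960789: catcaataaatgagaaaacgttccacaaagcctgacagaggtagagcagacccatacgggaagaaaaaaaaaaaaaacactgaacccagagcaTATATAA
Mup3, chr4:62087322-62087421: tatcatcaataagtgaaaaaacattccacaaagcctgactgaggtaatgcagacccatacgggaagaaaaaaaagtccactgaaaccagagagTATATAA
The TATATAA began 31 bases before the annotated start of Mup19, 29 bases before that of Mup4 and 11 bases before that of Mup3, so the sequence was shared by members with very different levels.

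The libraries were checked before the members were compared. All 7 hepatocyte markers, including Alb, were above 0 in all 36 mice. Of 5 salivary gland markers, Amy1, which liver also makes, was present, Smgc, Dcpp1 and Prol1 were listed at 0 in all 36 mice and Muc19 in 35. Erythroid markers summed to 649 to 184947 FPKM, with the highest value before birth, and skeletal muscle markers to 0.225 to 1128 FPKM, with the highest value in Day 0 replicate 1. All 36 mice had the 4 Y-linked transcripts above 0, and 1 mouse, Day -2 replicate 2, also had Xist, a transcript of female cells, above 1 FPKM (3.27 FPKM). Transcripts of exocrine pancreas, 8 of 8 markers present, summed to between 0.384 and 22523 FPKM, the highest being Day 60 replicate 1, Day 20 replicate 2 at 7791 FPKM and Day 45 replicate 1 at 4981 FPKM. The labels gave no sequencing batch, and the summed FPKM of a library ranged from 353712 to 450597. Because the livers were bulk samples, fewer cells of a type and less RNA per cell cannot be told apart.

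Before weaning the family was close to silent. The sum of the 9 members was 1.85 ± 0.0701 FPKM at Day -2 (SD, n = 3 here and below) and 0.185 ± 0.0747 FPKM at Day 0. At Day 1 the 3 mice had 0.104, 0.0768 and 0.327 FPKM, a mean of 0.169 FPKM that was 0.0904 without replicate 3. At Day 3 they had 0.330, 0.0362 and 0.0396 FPKM, a mean of 0.135 FPKM that was 0.0379 without replicate 1. Both means thus rested on 1 mouse. At Day 5 the 3 mice had 0.156, 1.88 and 5.22 FPKM, a spread wider than the difference between any 2 ages from Day -2 to Day 20, and their mean of 2.42 FPKM was 1.02 FPKM without replicate 2. The sum was 0.744 ± 0.568 FPKM at Day 10 (0.488 without replicate 1), 0.667 ± 0.149 FPKM at Day 15 and 3.63 ± 2.20 FPKM at Day 20. The 3 mice of Day -2 (1.77 to 1.91 FPKM) were all above the 9 mice of Days 0, 1 and 3, the highest of which had 0.330 FPKM.

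Single members up to Day 20 were at or near the lower end of the scale in all 24 mice. Mup19 was above 0 in all 24, with a median of 0.174 FPKM and a highest value of 2.29 FPKM in Day 5 replicate 2. Mup12 was listed at 0 in 1 of 24 mice and reached 1.27 FPKM in that same Day 5 mouse. Mup3 was listed at 0 in 2 mice and reached 3.74 FPKM in Day 20 replicate 2, which was also the mouse with the highest member sum of its age (6.00 FPKM) and the pancreas transcripts given above. Their part in that value was not tested. Mup20 was listed at 0 in 4 mice, Mup21 in 8, Mup5 in 12, Mup2 in 15, Mup1 in 22 and Mup4 in all 24. An exact 0 in such estimates can also be a failed assignment among copies.

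The family appeared between Day 20 and Day 25, on either side of weaning. The member sum was 256 ± 87.8 FPKM at Day 25, 70.4 times the mean of Day 20, with 168, 256 and 344 FPKM in the 3 mice. For 8 of the 9 members, all 12 mice from Day 25 on were above all 24 younger mice, as they were for 0.681% of all 21889 rows and 1.30% of the 11149 rows tested below. The family was chosen for this rise, so nothing is read from that count. The exception was Mup4, which was listed at 0 in 5 of the 12 older mice and peaked at 0.157 FPKM.

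**Figure D1:**
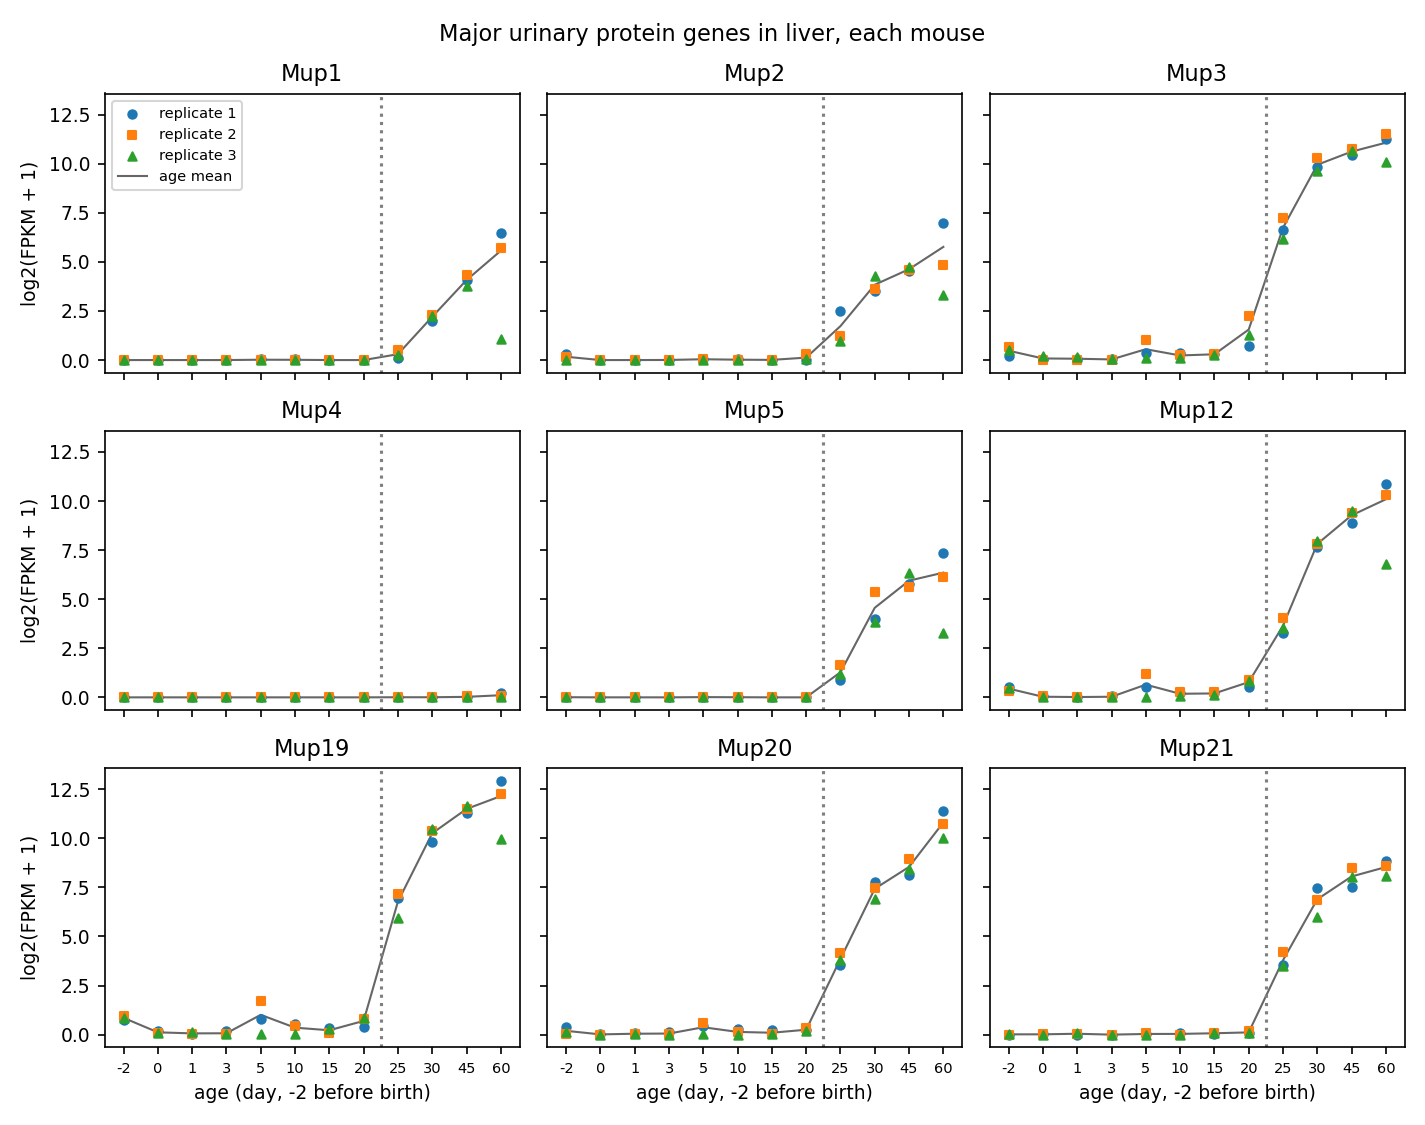
Level of each member, as log2(FPKM + 1), in each of the 36 mice by age in days; symbols are the 3 replicates of an age, the line joins age means, and the dotted line marks the step from Day 20 to Day 25. In 8 of 9 panels all mice from Day 25 on sit above all younger mice (0.681% of all rows of the table), Mup4 stays near 0, and at Day 60 replicate 3 (triangle) sits below the other 2 mice.

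At Day 25, Mup19 and Mup3 made up most of the sum. Mup19 was at 0.298, 0.749 and 0.825 FPKM in the mice of Day 20 and at 123, 142 and 61.0 FPKM in those of Day 25, a ratio of means of 174. Mup3 went from 0.668, 3.74 and 1.40 FPKM to 97.5, 148 and 71.2 FPKM, a ratio of 54.5. The groups did not overlap for either gene. Mup21 reached 12.8 ± 4.16 FPKM (155 times Day 20), Mup20 13.5 ± 2.93 FPKM (71.0 times) and Mup12 11.5 ± 3.62 FPKM (16.2 times). Mup2 was at 4.64, 1.35 and 0.955 FPKM in the 3 mice of Day 25, and Mup5 at 0.847, 2.17 and 1.26 FPKM. Mup1 remained between 0.0725 and 0.405 FPKM.

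Between Day 25 and Day 30 the sum multiplied again, by 10.8, to 2765 ± 341 FPKM. Mup19 reached 907, 1333 and 1430 FPKM, and Mup3 reached 928, 1234 and 801 FPKM. The ranges of the 2 genes overlapped. Mup12 rose by a ratio of 19.5 to 225 ± 21.9 FPKM. Mup20 went to 221, 176 and 118 FPKM (ratio 12.7), and Mup21 to 177, 115 and 62.2 FPKM (ratio 9.19). For these 2 genes the same mouse, replicate 1, was highest and replicate 3 lowest, whereas Mup19 and Mup12 were highest in replicate 3. Mup5 reached 22.6 ± 14.8 FPKM, Mup2 13.3 ± 4.40 FPKM and Mup1 3.61 ± 0.499 FPKM.

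The later steps were smaller. The sum was 5813 ± 753 FPKM at Day 45, a ratio of 2.10 to Day 30, and averaged 10143 FPKM at Day 60 with 15642, 11247 and 3540 FPKM in the 3 mice. The Day 60 range contained all 3 mice of Day 45 (4943 to 6254 FPKM), so the 2 ages overlapped. Replicate 1, with the highest sum, was also the mouse with the most pancreas transcripts, whose part in the value was not tested, and the Day 60 mean was 7393 FPKM without it and 13444 FPKM without replicate 3. The sum was 27.3% of its Day 60 mean at Day 30 and 57.3% at Day 45. As a share of all FPKM in a library, the 9 members took 0.000949% at Day 20 and 0.0681% at Day 25. They took 0.712% at Day 30, 1.52% at Day 45 and 2.54 ± 1.48% at Day 60. With the other 10 Mup rows the Day 60 share was 3.90 ± 2.50%, and the rise had the same shape: the 19 rows together went from 5.09 ± 3.43 FPKM at Day 20 to 359 ± 122, 4334 ± 451, 9416 ± 1107 and 15555 ± 10280 FPKM at the 4 later ages.

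At Day 45 Mup19 stood first with 2888 ± 362 FPKM, ahead of Mup3 with 1570 ± 156 FPKM, and the ranges of the 3 mice did not overlap. Mup12 followed with 617 ± 131 FPKM (468 to 714), then Mup20 with 372 ± 114 FPKM (275 to 497) and Mup21 with 265 ± 84.0 FPKM (185 to 353). Mup12 overlapped Mup20, and Mup20 overlapped Mup21. Mup5, Mup2 and Mup1 were at 60.5 ± 17.2, 23.7 ± 1.71 and 15.8 ± 3.22 FPKM. At Day 60 the order of means was Mup19 (4552 FPKM), Mup3 (2155), Mup20 (1795), Mup12 (1090), Mup21 (371), Mup5 (80.9), Mup2 (53.4), Mup1 (46.5) and Mup4 (0.0781). The SD was 26.1 to 116% of the mean, and each of the first 4 genes overlapped the next in the order.

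The fold changes were also estimated with limma, a linear model on log2(FPKM + 1) fitted to the 11149 rows whose mean reached 1 FPKM at 1 age or more. Of the 9 members, 8 passed this filter and Mup4 did not. Of the 8, 6 passed only through ages from Day 25 on (Mup3 and Mup19 also reached means of 1.94 and 1.01 FPKM earlier), so a difference between early and late ages was built into their selection. For Days 25 to 60 against Days 1 to 20, 8 of the 8 were higher, where 11.7% of all tested rows were higher, and 0 were lower, where 68.1% were lower. Nothing is read from either count. The log2 fold changes ran from 2.74 (SE 0.29) for Mup1 to 9.66 (SE 0.20) for Mup19, with Mup3 at 9.12, Mup20 at 7.45, Mup12 at 7.21 and Mup21 at 6.71. The pseudocount understates the change of the low members. The median over all tested rows was −0.39, and relative to it the members' changes ran from 3.13 to 10.05. All 8 differed from Day 60 at 1 or more ages, as did 90.7% of all rows.

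The steps after weaning were separated by the same model, with p-values adjusted by Benjamini-Hochberg over all 11149 rows. The family was chosen for its rise after weaning, so nothing is read from the counts of these steps. For Day 25 against Day 20, 5 of the 8 were higher, against 3.94% of all rows. These were Mup3 (log2 fold change 5.26), Mup12 (2.84), Mup19 (6.01), Mup20 (3.59) and Mup21 (3.64), and the 3 that did not pass were Mup1 (0.29), Mup2 (1.45) and Mup5 (1.24). For Day 30 against Day 25, 7 of the 8 were higher, against 0.834% of all rows, and Mup1 did not pass (1.91, limma adjusted p = 0.179). The model used 1 variance per gene for all ages, so the spread at Day 60 also entered the SE of these steps. Its part in the members that did not pass was not tested. Their mice did not overlap: Mup1 had 0.0725 to 0.405 FPKM at Day 25 and 3.04 to 3.97 FPKM at Day 30. Mup2 had at most 0.234 FPKM at Day 20 and at least 0.955 FPKM at Day 25, and Mup5 at most 0.000307 and at least 0.847 FPKM. For Days 45 and 60 against Day 30, 4 of the 8 were higher, against 1.10% of all rows: Mup20 (2.22, SE 0.21), Mup21 (1.48, SE 0.21), Mup1 (2.04, SE 0.56) and Mup19 (1.37, SE 0.37). The counts depended on single mice. With single mice left out, they ran from 5 to 7 for Day 25 against Day 20. For Day 30 against Day 25 they ran from 6 to 8. The count for Days 45 and 60 against Day 30 was 8 of 8 without Day 60 replicate 3. It was 2 of 8 without either Day 30 replicate 1 or replicate 3, or without either Day 45 replicate 1 or replicate 2. The same held without either Day 60 replicate 1 or replicate 2. Mup20 and Mup21 passed in each of those fits of this last step.

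The make-up of the sum changed with age. Mup3 took 41.1 ± 2.69% of the member sum at Day 25 and 35.6 ± 5.14% at Day 30, and then 27.1 ± 1.65% at Day 45 and 24.2 ± 7.83% at Day 60. Its lowest mouse of Day 25 (38.0%) was above its highest mouse of Day 45 (28.5%). Mup19 took 41.9 ± 5.87, 44.1 ± 8.27, 49.8 ± 2.74 and 40.5 ± 10.8% at the same 4 ages, with overlapping ranges. Mup20 was steady at 5.59 ± 1.88, 6.32 ± 2.38 and 6.34 ± 1.41% through Day 45 and then took 20.4 ± 7.76% at Day 60. All 3 mice of Day 60 (14.9 to 29.3%) were above all 9 mice of Days 25 to 45 (4.21 to 8.98%).

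**Figure D2:**
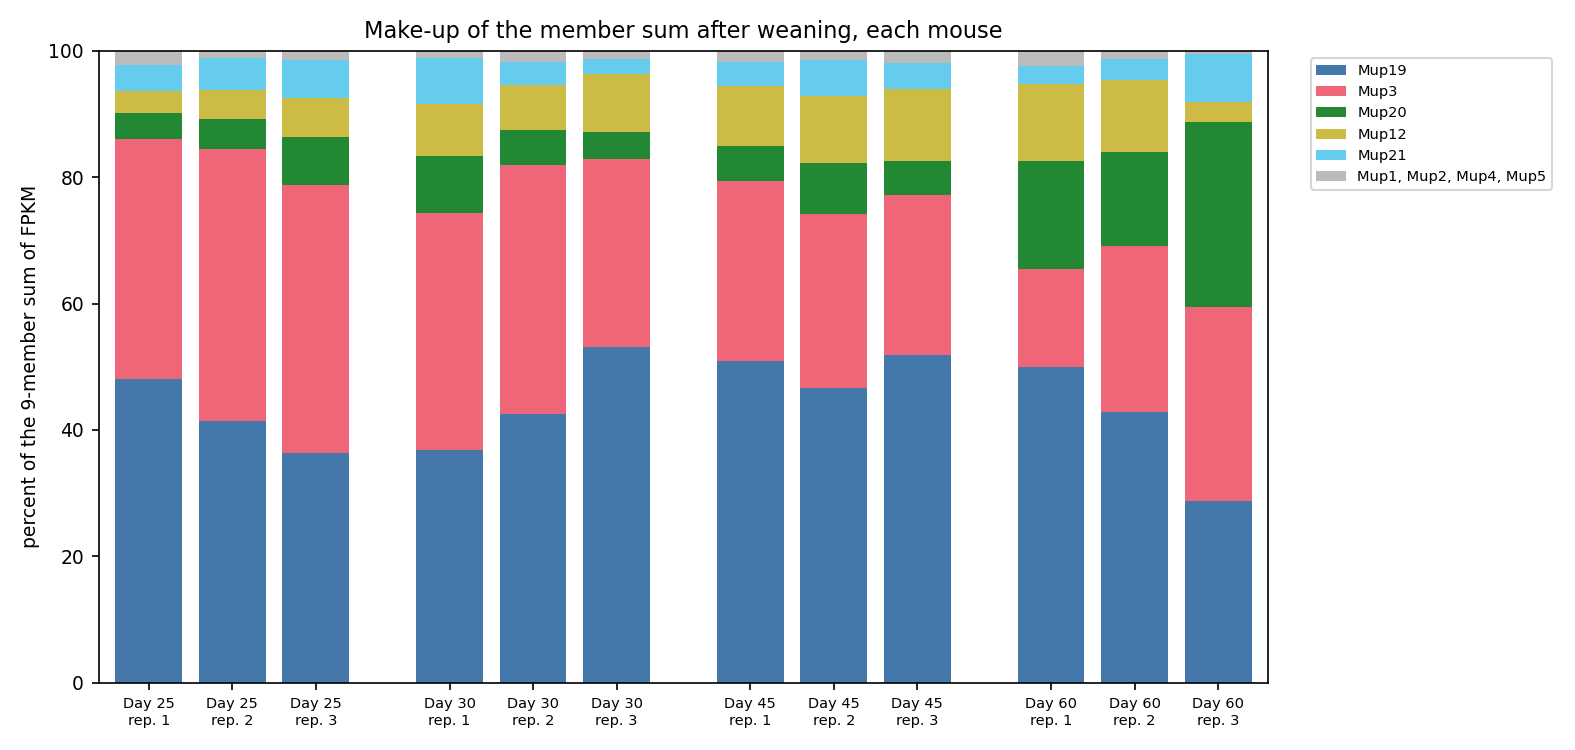
Percent of the 9-member FPKM sum taken by each member in each of the 12 mice of Days 25 to 60; each bar is 1 mouse and Mup1, Mup2, Mup4 and Mup5 are added together. Mup3 takes 38.0 to 43.0% at Day 25 and 25.3 to 28.5% at Day 45, and Mup20 takes 14.9 to 29.3% at Day 60 against 4.21 to 8.98% before.

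Mup20 thus had the largest ratio of Day 60 to Day 45 among the 8 members (4.82, and 5.84 without replicate 3). It was at 275, 497 and 345 FPKM in the mice of Day 45 and at 2668, 1679 and 1038 FPKM in those of Day 60, and the 2 ages did not overlap. For Mup3 the ratio was 1.37 and for Mup19 1.58, and without replicate 3 they were 1.71 and 2.19. Mup21, at 185, 353 and 258 FPKM and then 461, 382 and 269 FPKM, had a ratio of 1.40 and its 2 ages overlapped.

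One mouse of Day 60 stood apart in this family. Replicate 3 had Mup19 at 1016 FPKM, where the other 2 mice had 7818 and 4822, and Mup12 at 109 FPKM, where they had 1888 and 1272. Mup1 was at 1.13 FPKM against 87.4 and 51.0 FPKM, a ratio of 0.0163 to their mean, and below all 3 mice of Day 30. Mup5 was at 8.75 FPKM against 165 and 68.5 FPKM, and Mup2 at 8.86 FPKM against 124 and 27.2 FPKM. Mup3, Mup20 and Mup21 were closer to the other mice: Mup3 was at 1090 FPKM (ratio 0.406), Mup20 at 1038 FPKM (0.477) and Mup21 at 269 FPKM (0.637). The member sum of this mouse was 0.263 of the mean of the other 2, and the sum of all 19 Mup rows 0.208.

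**Figure D3:**
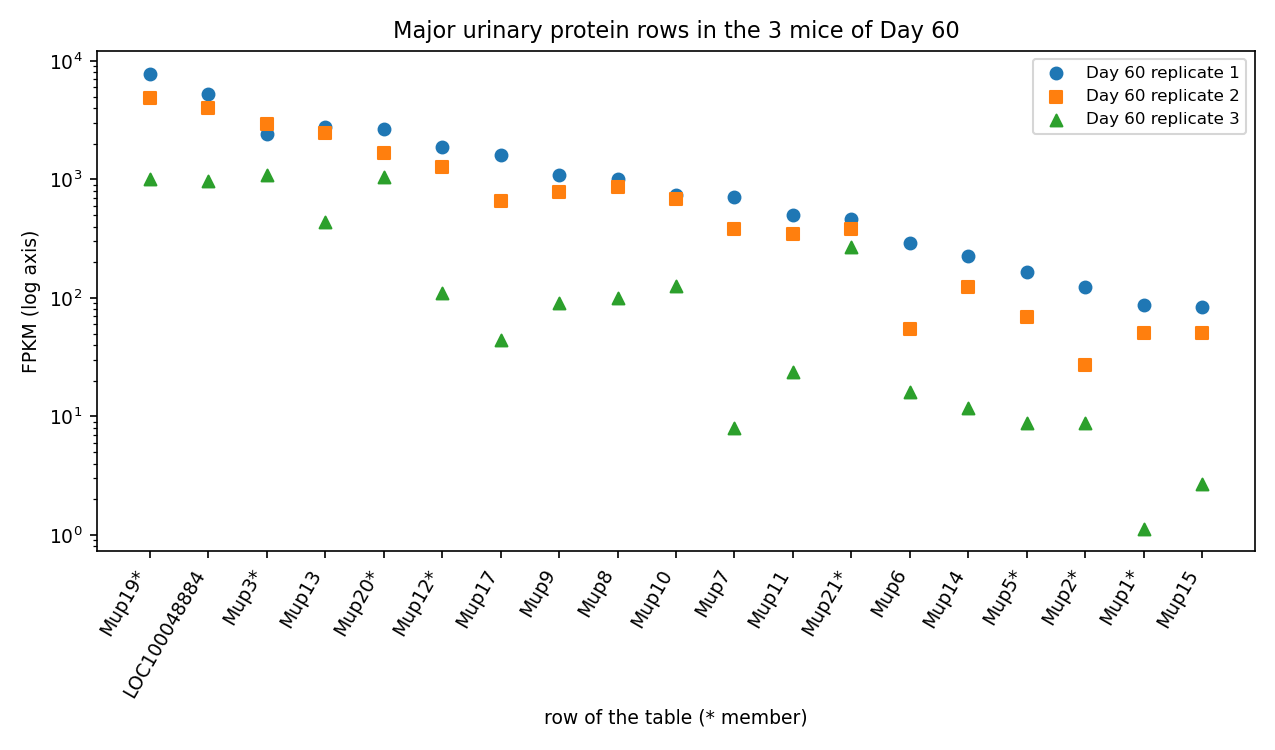
FPKM on a log axis of 18 Mup rows and LOC100048884 in each of the 3 mice of Day 60, ordered by the highest mouse, with members starred and Mup4 left out. Replicate 3 (triangles) is the lowest of the 3 in every row, from 0.0147 of the mean of the other 2 for Mup7 to 0.637 for Mup21.

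Few other transcripts of this mouse were as low. Among 2689 genes whose Day 60 mean reached 10 FPKM, 12 were more than 5 times below the lower of the other 2 mice in replicate 3, and all 12 were Mup rows, Mup1, Mup5 and Mup12 among the members. In the other 11 mice of Days 25 to 60, the same comparison named at most 1 Mup row, in Day 45 replicate 3. The number of genes it named was 18 in Day 60 replicate 2, 0 of them Mup rows, and 10 in Day 45 replicate 3. It was at most 5 in each of the others. The hepatocyte markers of the mouse were at 1.01 to 1.42 times the mean of the other 2 (Alb 1.14), and its median ratio over all 2689 genes was 1.06.

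The ratios of this mouse were set beside sequence sharing, and a link between them was not tested. Mup rows with 59.4 to 100% of their windows shared all had ratios of at most 0.178. LOC100048884, which carries the RefSeq gene number of Mup18, had a ratio of 0.209, and 87.1% of the Mup18 windows were shared. Rows with little sharing had both low and higher ratios. The near copies Mup1, Mup2, Mup12 and Mup19 had ratios of 0.0163 to 0.161, but Mup5, with 1.33% of its windows shared, had a ratio of 0.0748, and Mup6, a Mup row outside the members with 0% shared, had 0.0932. Mup3, Mup20 and Mup21, with 0 to 4.50% shared, kept ratios of 0.406 to 0.637.

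**Figure D4:**
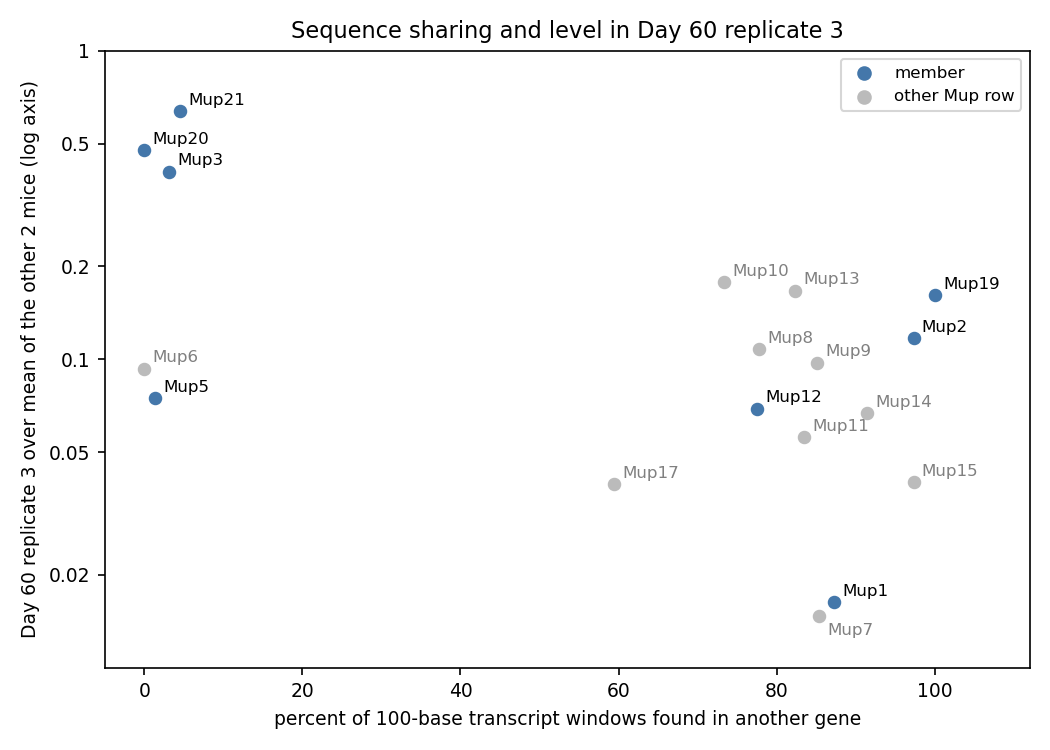
Percent of 100-base windows of each Mup transcript found unchanged in another gene (horizontal axis) against the FPKM of Day 60 replicate 3 divided by the mean of the other 2 mice (vertical, log axis); each point is a gene, members in blue. Mup4 and LOC100048884 are not drawn. The 3 highest ratios, 0.406 to 0.637, belong to Mup3, Mup20 and Mup21 with little sharing, while Mup5 and Mup6 combine little sharing with ratios of 0.0748 and 0.0932.

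Other genes known for sex-dependent expression in liver were compared with the family. These lists and those below were chosen with earlier results of these data known, so their counts are a description. As with the members, a list gene that reached the filter of 1 FPKM only at late or only at early ages had a difference built into its selection. Nothing is read from the list counts. Of 15 genes known as higher in male than female liver, 14 were tested, and 14 of 14 were higher at Days 25 to 60 than at Days 1 to 20 (median log2 fold change 3.13), against the 11.7% given above. Elovl3, a fatty acid elongase, was at 0.105 ± 0.0298 FPKM at Day 20, at 3.02 ± 0.614 at Day 25 and at 189 ± 56.5 FPKM at Day 30. Cyp4a12a, a fatty acid hydroxylase, went from 0.0111 ± 0.00496 to 3.10 ± 1.81 and 94.4 ± 42.2 FPKM at the same ages. Its neighbour Cyp4a12b went from 0.532 ± 0.430 to 1.77 ± 0.984 and 47.1 ± 26.2 FPKM. At Day 1, however, Cyp4a12a had been at 2.67 ± 1.11 and Cyp4a12b at 2.20 ± 0.668 FPKM, above their Day 20 levels. At Day 25 the 15 genes were at 0 to 173% of their Day 60 means (median 9.69%), next to 2.52% for the member sum. Only 4 of the 15 were below the member sum, Elovl3 (1.12%), Cyp4a12a (1.27%), Cyp4a12b (1.05%) and Moxd1, which was listed at 0 at Day 25, was not tested and is named after its values were seen. In Day 60 replicate 3, 13 of the 14 male-predominant genes were the lowest of the 3 mice, against 4118 of 11130 tested rows outside the family, with Elovl3 at a ratio of 0.418, Cyp4a12a at 0.590 and Cyp4a12b at 0.648. The 1 exception, C4a, named after its values were seen, was 3.48 times the mean of the other 2.

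Of 21 genes known as higher in female than male liver, 18 were tested, 14 were lower at Days 25 to 60 and 3 were higher, against 68.1 and 11.7% of all rows. The fall was largest for the cytochrome P450 monooxygenases Cyp3a16 and Cyp3a44 and for the sulfotransferase Sult2a2, and its timing differed between them. Cyp3a16 went from a mean of 56.3 FPKM at Day 1 to 35.6 ± 4.12 at Day 20 and 0.507 ± 0.318 at Day 25. Cyp3a44 fell mostly before weaning, from a mean of 106 FPKM at Day 1 to 9.34 ± 2.51 at Day 20. It averaged 7.44 FPKM at Day 25 and had 0.221 ± 0.130 FPKM at Day 45. Sult2a2 first rose, from a mean of 67.5 FPKM at Day 1 to 616 FPKM at Day 20. It then had 295 ± 51.2 FPKM at Day 25 and 2.98 ± 1.80 at Day 30. The 3 that were higher, Cyp17a1, Cyp2a4 and A1bg, peaked at Day 25 with 41.7 ± 2.38, 44.1 ± 9.03 and 39.8 ± 18.4 FPKM, when the Mup sum had just appeared, and were at 7.78, 15.6 and 0.586 FPKM at Day 30. In Day 60 replicate 3 these 3 genes were 5.98, 13.9 and 5.43 times the mean of the other 2 mice, and 10 of the 18 genes were the highest of the 3 mice, against 4335 of the 11130 rows outside the family. Another 6 of the 18 were the lowest, against the 4118 rows given above, and the median log2 difference of the 18 from the other 2 mice was 0.04. Cyp3a16, Cyp3a44 and Sult2a2, which reached at most 0.153, 0.194 and 0.157 FPKM in the 3 mice, were at ratios of 0.339, 0.435 and 0.725.

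**Figure D5:**
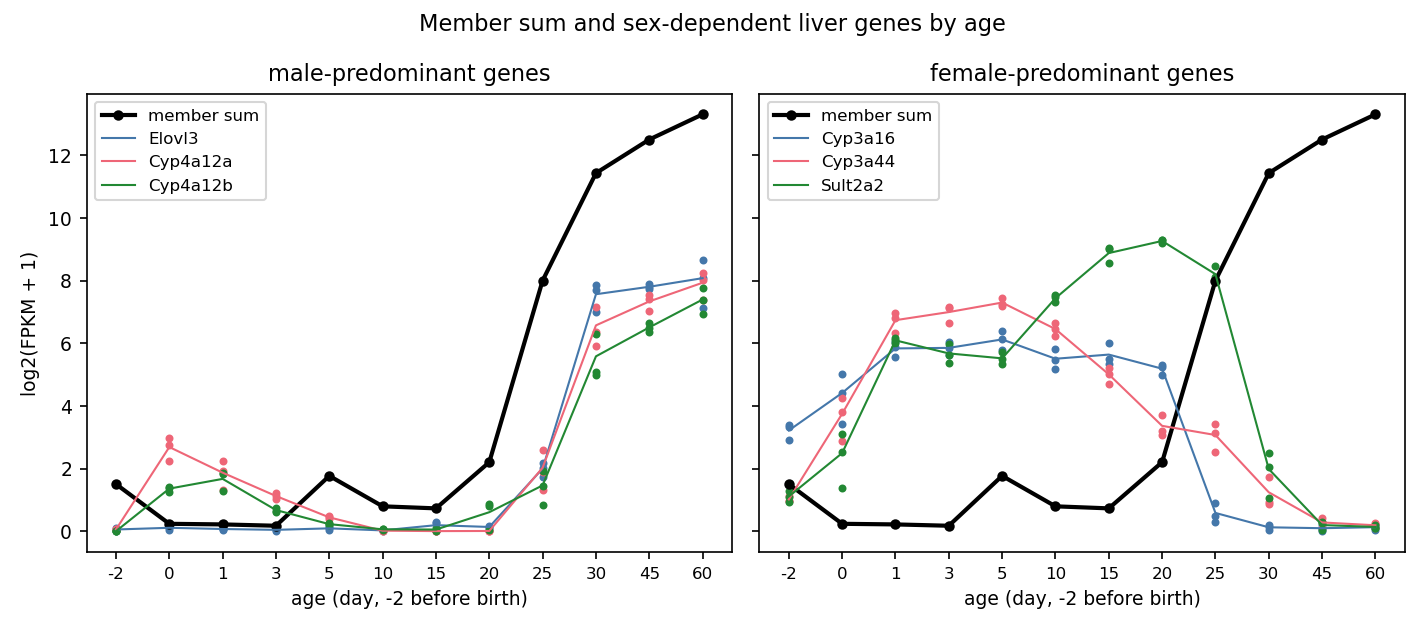
Mean of the 9-member sum (black) and of 3 male-predominant (left) or 3 female-predominant (right) liver genes, as log2(FPKM + 1), by age in days, with points for single mice of the coloured genes. The member sum reaches 256 FPKM at Day 25 while Elovl3 is at 3.02 FPKM, and Sult2a2 falls from 295 to 2.98 FPKM between Day 25 and Day 30.

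Growth hormone signalling genes were mixed in direction. Of 14 tested, 5 were higher and 7 lower at Days 25 to 60 than at Days 1 to 20, against 11.7 and 68.1% of all rows. Ghr, the growth hormone receptor, was at 13.9 ± 2.23 FPKM at Day 1. It was at 73.7 ± 11.3 FPKM at Day 20, when the member sum was 3.63 FPKM, and at 73.0 ± 2.69 FPKM at Day 25. Igf1, a secreted growth factor induced by growth hormone, had 51.7 ± 5.45 FPKM before weaning, at Day 20, and 97.5 ± 8.07 FPKM at Day 25. Its binding partner Igfals had 54.1 ± 3.20 and 97.5 ± 5.51 FPKM. The genes with the largest falls were Cux2, a female-predominant repressor (1.86 ± 0.626 FPKM at Day 1, 0.0152 ± 0.00991 at Day 30), the carrier Igfbp3 (17.5 ± 1.98 and 7.65 ± 2.29 FPKM) and the feedback inhibitor Socs2 (6.60 ± 2.41 and 2.02 ± 0.602 FPKM). The fall of Socs2 was not steady, with 8.13 ± 2.01 FPKM at Day 25 and 4.39 ± 1.97 FPKM at Day 60.

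Among 11 hormone receptors and regulators reported for Mup genes, 8 were tested, 2 were higher (Ghr and Zhx2) and 4 lower, against the same 11.7 and 68.1%. Thra, a thyroid hormone receptor, Insr, the insulin receptor, and Stat5b, which carries the growth hormone signal to the nucleus, had log2 fold changes of −0.81, −0.46 and −0.33, and Zhx2 of 0.16. The Day 25 and Day 30 means of Zhx2 (0.653 and 0.720 FPKM) were below its Day 20 mean (0.792 FPKM). From Day 20 on, only its Day 60 mean (1.13 FPKM) reached the filter of 1 FPKM. The built-in difference described above may therefore apply to Zhx2. After scaling to an equal upper quartile, 1 of the 8 was lower in place of 4. In each of the 3 limma comparisons of the steps from Day 20 on, 0 of the 8 passed, and 0, 1 and 2 of them had an unadjusted p under 0.05.

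Of 13 other lipocalins, the wider family to which Mup proteins belong, 10 were tested, 6 were higher and 2 lower at Days 25 to 60, where 11.7% of all rows were higher and 68.1% lower. Orm1 and Orm2, plasma carriers of acute-phase reactions, had 17.3 ± 9.25 and 4.77 ± 1.58 FPKM at Day 20 against 421 ± 39.2 and 69.3 ± 16.4 FPKM at Day 25. C8g, a complement component, was at 293 ± 46.8 and then 375 ± 77.9 FPKM. Unlike the Mup sum, Orm1 was at its highest at Day 30 (803 ± 47.9 FPKM) and at 563 ± 65.5 FPKM at Day 60, and in Day 60 replicate 3 it was at 0.812 of the other 2 mice. Lcn2, an iron-sequestering lipocalin, was at 182 ± 8.99 FPKM at Day 1 and at 7.28 ± 0.756 FPKM at Day 30, and Apom, a carrier on lipoproteins, had a log2 fold change of −0.61.

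The rows most like the member sum over the 12 age means of log2(FPKM + 1), symbols starting with Mup left out, were ranked by Pearson's r as a description. The first was LOC100048884 (r = 0.995), whose gene number is that of Mup18 in RefSeq. It was at 0.232 ± 0.0581 FPKM at Day 20, 111 FPKM at Day 25 and 3387 ± 2193 FPKM at Day 60, and at 963 FPKM in Day 60 replicate 3 against 5232 and 3967 FPKM. With it, the 19 Mup rows summed to 4.75 ± 3.03% of a library at Day 60. The next 9, with r from 0.979 to 0.987, were C730048C13Rik, Gm10319, Ugdh, which makes the substrate of glucuronidation, Hes6, Aes, Slc41a2, Slco1a1, an organic anion transporter, Gm5631 and Srd5a1, the steroid 5-alpha-reductase. Their low and high ages were alike but not their sizes: Srd5a1 had 0.962 ± 0.149 FPKM at Day 20 against 36.3 ± 3.67 FPKM at Day 60, and Aes had 206 ± 19.7 against 391 ± 42.7 FPKM. In Day 60 replicate 3, Slco1a1 was at 12.0 FPKM against 25.6 and 37.5 FPKM, while Hes6 and Aes were higher than in the other 2 mice.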

How the data were processed

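Livers of 36 mice were analysed from the table of FPKM values deposited by the authors, who mapped 100-base read pairs to mm9 with TopHat 1.2.0 and estimated transcript abundance with Cufflinks 1.0.3 against Ensembl release 65, per the study's methods and the submitters' processing notes. How reads that match several Mup copies were shared out was not given in the sources used here. The number of reads per library is not in the table, so no counting interval is given. Mice were grouped by the age in their titles. The members and gene lists were chosen with earlier results of these data known.

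Group differences were fitted with limma 3.58.1 (R 4.3.3) on log2(FPKM + 1) over 11149 rows whose mean reached 1 FPKM at 1 age or more, with all 36 mice, 1 mean per age, variances that follow mean expression, and Benjamini-Hochberg adjustment at 0.05. The fit was tested on simulated data. The study's per-gene Dunnett test was run as an alternative for the differences from Day 60 only. The 3 mice of an age came from multiple litters, but litters are not given per mouse, so p-values measure the spread between these mice. Sums and shares are in FPKM without a test. Named list genes are, for each list and direction, up to 3 called genes with the largest change of Days 25 to 60 against Days 1 to 20. The 10 rows most like the member sum were ranked by Pearson's r over 12 age means. Coding sequences, exons and positions came from GENCODE M1 on NCBIM37 and promoters from RefSeq on GRCm38.p6, where 5 of 9 members had an entry. Identities were computed with Biopython 1.88. Each of the 9 members has another Mup number among its RefSeq synonyms, so a symbol may name a different copy in other annotations.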

Additional observations from a re-analysis of the deposited data

How the results depend on the processing

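The log2 fold changes of the 8 tested members kept their sign in every alternative run. The count of members higher at Days 45 and 60 than at Day 30 (4 of 8) was 2 with a pseudocount of 0.1 FPKM, 2 without the filter on low values and 2 with Day 45 replicate 1 and Day 60 replicate 1 both left out, an alternative chosen after seeing the data, and ran from 2 to 8 when single mice were left out (8 without Day 60 replicate 3). The other 4 member counts stayed within 1.5 times under all alternatives run for them. The Dunnett test was run only for the count of members that differed from Day 60 at 1 or more ages. With a filter of 5 FPKM, which tests fewer genes, growth hormone signalling had 3 higher and 3 lower, the hormone regulators 1 higher and 2 lower, and other lipocalins 3 higher. Without a filter the regulators had 4 higher. At a common upper quartile the regulators had 1 lower and the lipocalins 1 lower, and with a common sum of the non-Mup rows the regulators had 2 lower. The cause of these shifts was not tested.

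On the scale of a sum of 1000000 per library (TPM), a change of unit, the member sums of the 12 ages, from Day -2 to Day 60, were 4.37, 0.428, 0.418, 0.322, 5.67, 1.87, 1.72, 9.49, 681, 7122, 15169 and 25422. At a common upper quartile it was 1.43 at Day -2, 3575 at Day 30 and 7721 at Day 45, and with a common non-Mup sum 1.71 at Day -2. The share of higher calls among all called genes was 14.6% for Days 25 to 60 against Days 1 to 20 and 36.3% at a common upper quartile. On the TPM scale it was 37.9% in place of 50.8% for Day 30 against Day 25, and 24.5% in place of 35.3% for Days 45 and 60 against Day 30.

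Replicate numbers were not taken to pair the mice, since not every same-numbered pair of different ages had a correlation of deviations over genes above 0.1: 104 of 198 had, with a median of 0.13 (range −0.68 to 0.83), against 147 of 396 pairs with different numbers, with a median of −0.05. A hint from the data, not the design, was that 19 of 36 mice correlated best with their own number. With the replicate block, the counts of members called were 8, 6, 7 and 5 for the 4 comparisons in the order given in the text, in place of 8, 5, 7 and 4.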
